A study of Mus musculus with 12 samples.

Results

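Expression of 10 genes that mark tuft cells was followed in mouse colon organoids: Dclk1, Trpm5, Pou2f3, Avil, Ptgs1, Alox5ap, Il25, Gfi1b, Chat and Rgs13. They were taken by symbol, as every non-control probe whose transcript accession belongs to one of them, which gave 12 probes out of 55681 on the array. Dclk1 has 3 probes and each of the other genes has 1. Tuft cells are rare chemosensory cells of the gut lining. They read the lumen through a taste-type signalling chain that ends in the cation channel Trpm5, and they depend on the POU-domain transcription factor Pou2f3 for their formation. They release the cytokine Il25, which activates innate lymphoid cells against parasites, and they make acetylcholine, prostaglandins and leukotrienes. In mouse colon they are identified above all by the kinase Dclk1.

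The organoids were grown in Matrigel from colon crypts of C57BL/6 mice, 3 without the vitamin D receptor (VDR KO) and 3 wild type, in a culture that is enriched for stem cells. Cultures of each mouse received either 1,25(OH)2D3 (calcitriol, the hormone form of vitamin D) at 100 nM, renewed every 48 h, or ethanol as vehicle. The 4 groups were thus VDR KO with calcitriol, VDR KO with vehicle, wild type with calcitriol and wild type with vehicle, with 3 arrays each and 12 in all. The labels give the exposure as 72 h in one place and 62 h in another, and the mice as 2 or 3 months old. They do not say how the VDR allele was made.

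Each array is a 1-colour Agilent hybridisation of 100 ng of labelled RNA. A level is the log2 of the processed signal minus the 75th percentile of that array, so that 0 is the 75th percentile and dim probes have negative levels. Levels of different probes were not set against each other, except where those of a marker list were summed. The Vdr probe averaged -0.00 in KO vehicle organoids and 1.60 in wild-type vehicle organoids, and its place relative to the deletion is not known here. All 12 epithelial marker genes were well above background on all 12 arrays, and 4 of 5 calcitriol target genes (Cyp24a1, S100g, Trpv6 and Atp2b1) rose with calcitriol in wild type. The sex in the labels went against Xist and Ddx3y for mouse 1 (labelled male) and mouse 2 (labelled female) of both genotypes, which are balanced over the 4 groups. The arrays were spread over 3 slides, unevenly between groups. The largest, with 7 arrays, holds all 3 wild-type calcitriol arrays, KO calcitriol arrays 1 and 2 and array 3 of each vehicle group. Wild-type vehicle arrays 1 and 2 share a slide with KO calcitriol array 3, and KO vehicle arrays 1 and 2 are alone on the last. Slide thus partly coincides with treatment, and among vehicle arrays with genotype. Only wild-type mouse 3 has both its arrays on the same slide.

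The dim end of the arrays matters for these genes. The dimmest signal flagged well above background, called the array floor here, lay at levels between -6.12 and -5.58 on KO calcitriol arrays, between -6.37 and -5.50 on KO vehicle arrays, between -5.97 and -5.79 on wild-type calcitriol arrays and between -5.28 and -4.55 on wild-type vehicle arrays. The 8876 probes that were not well above background on any array had median levels of -8.07 to -7.53, -7.85 to -7.53, -8.09 to -7.83 and -7.41 to -5.59 in the same 4 groups. The wild-type vehicle arrays, and array 2 among them most, therefore read high at low signal. The median level of the 12 tuft probes was -5.24 to -4.55 on KO calcitriol arrays, -6.49 to -4.98 on KO vehicle arrays, -5.34 to -5.07 on wild-type calcitriol arrays and -4.84 to -3.34 on wild-type vehicle arrays. Between the KO groups the probes never above background differed little, by a median of -0.08. The part of these shifts in the results was not tested.

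**Figure D1:**
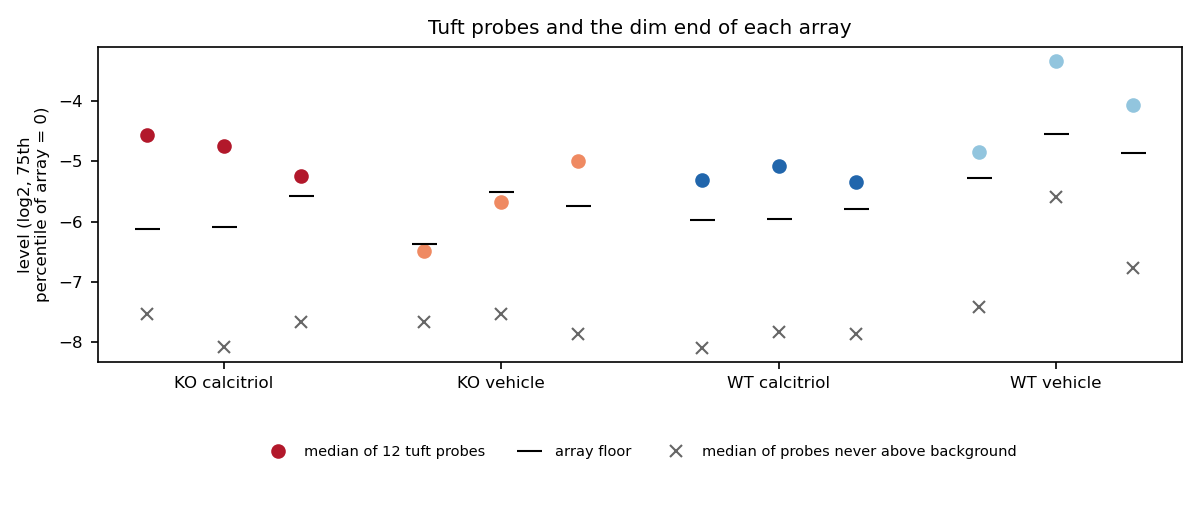
Each column is 1 array, ordered as KO calcitriol, KO vehicle, wild-type calcitriol and wild-type vehicle, with mice 1 to 3 from left to right. Filled circles are the median level of the 12 tuft probes, dashes the array floor and crosses the median of the 8876 probes never well above background, all in log2 units with the 75th percentile of the array at 0. Wild-type vehicle array 2 has the highest circle (-3.34), dash (-4.55) and cross (-5.59).

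Of the 10 genes, 2 were well above background on all 12 arrays (Ptgs1 and Alox5ap), 6 on 8 to 11 arrays by their best probe (Dclk1 and Avil on 11, Pou2f3 on 10, Il25 on 9, Trpm5 and Chat on 8) and 2 on a single array (Gfi1b and Rgs13). Counted over probes and arrays, tuft probes were well above background in 23 of 36 cases (63.9%) in KO calcitriol organoids, 15 of 36 (41.7%) in KO vehicle, 24 of 36 (66.7%) in wild-type calcitriol and 25 of 36 (69.4%) in wild-type vehicle. Over all probes the shares were 62.5%, 58.3%, 63.5% and 62.0%. The low share in KO vehicle organoids came from mice 1 and 2, with 3 and 4 of the 12 probes, against 8 in mouse 3. Those 2 arrays share a slide that holds no other array, and the part of the slide was not tested.

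**Figure D2:**
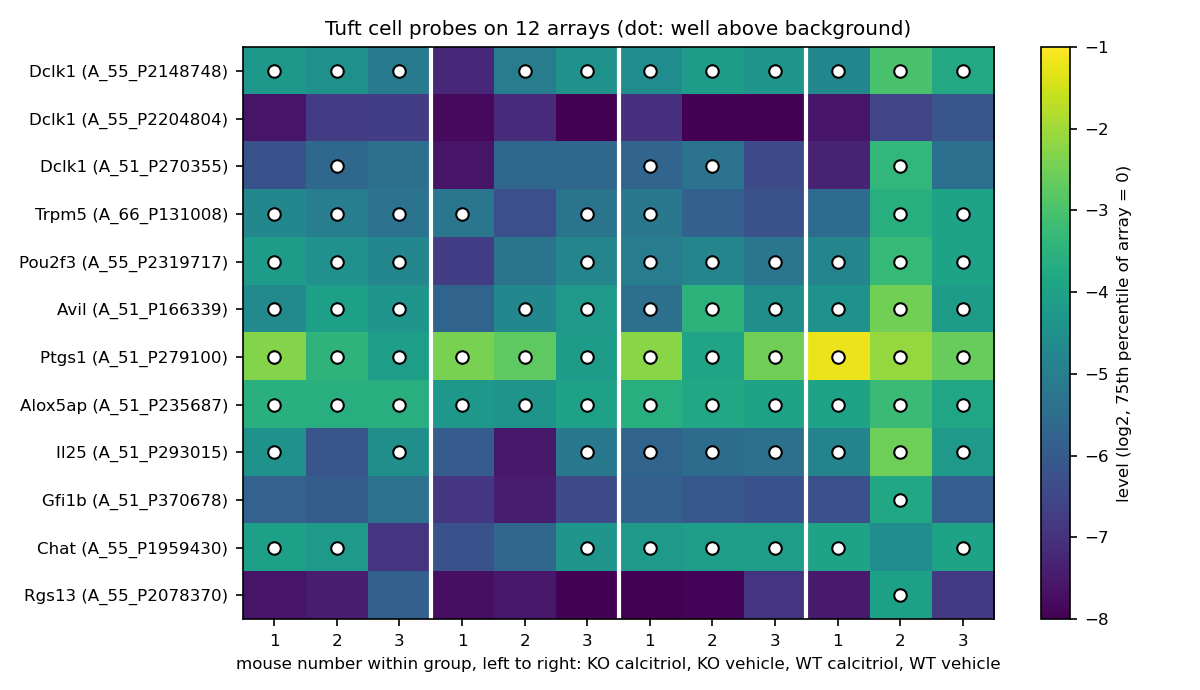
Rows are the 12 probes and columns the 12 arrays in 4 blocks of 3 mice (KO calcitriol, KO vehicle, wild-type calcitriol, wild-type vehicle). Colour is the level in log2 units with the 75th percentile of the array at 0, and a dot marks a probe that was well above background. Ptgs1 and Alox5ap have a dot on all 12 arrays, and Gfi1b and Rgs13 only on wild-type vehicle array 2.

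Pou2f3 belongs to the family of factors that bind the octamer ATGCAAAT, so the promoters of the members were searched for it. RefSeq windows of 300 bases (250 before to 50 after an annotated start, GRCm38.p6, gene strand) were at hand for 7 of the 10 genes, as 8 windows: Avil, Chat, Dclk1 with 2, Gfi1b, Ptgs1, Rgs13 and Trpm5. That start need not be the outermost of the gene: the Ptgs1 window, chr2:36230176-36230475, lies inside the gene, which begins at 36216742. None of the 8 held the full octamer on either strand, which 1.74% of all 32851 windows hold. The first 7 letters, ATGCAAA, occur in 4.63% of all windows and in that of Avil, on both strands. The last 7, TGCAAAT, occur in 4.02% and in that of Chat. The windows of Avil and Chat are shown because they hold these partial matches, in capitals. The 2 windows of Dclk1 are shown because the gene has 2 starts. They were not tied to its 3 probes, of which those well above background on 11 and 0 arrays belong to the same transcript.
Avil, chr10:127000459-127000758, plus strand: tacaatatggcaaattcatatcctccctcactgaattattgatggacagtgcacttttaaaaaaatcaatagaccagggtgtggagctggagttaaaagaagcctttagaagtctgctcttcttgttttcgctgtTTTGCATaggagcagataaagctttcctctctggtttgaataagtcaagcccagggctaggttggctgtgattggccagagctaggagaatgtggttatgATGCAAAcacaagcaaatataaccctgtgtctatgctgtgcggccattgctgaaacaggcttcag
Chat, chr14:32465860-32466159, minus strand: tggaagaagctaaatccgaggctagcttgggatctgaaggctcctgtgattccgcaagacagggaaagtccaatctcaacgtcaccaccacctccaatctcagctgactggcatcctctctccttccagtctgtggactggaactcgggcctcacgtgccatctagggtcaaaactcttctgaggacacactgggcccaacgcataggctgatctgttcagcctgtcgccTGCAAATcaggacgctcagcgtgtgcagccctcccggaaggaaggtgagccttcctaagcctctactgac
Dclk1 first start, chr3:55242114-55242413, plus strand: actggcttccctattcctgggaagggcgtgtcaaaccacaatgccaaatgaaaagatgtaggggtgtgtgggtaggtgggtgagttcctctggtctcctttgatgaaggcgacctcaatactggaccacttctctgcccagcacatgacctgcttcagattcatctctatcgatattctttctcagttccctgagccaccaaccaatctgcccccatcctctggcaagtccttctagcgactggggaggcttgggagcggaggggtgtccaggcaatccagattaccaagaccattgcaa
Dclk1 second start, chr3:55461478-55461777, plus strand: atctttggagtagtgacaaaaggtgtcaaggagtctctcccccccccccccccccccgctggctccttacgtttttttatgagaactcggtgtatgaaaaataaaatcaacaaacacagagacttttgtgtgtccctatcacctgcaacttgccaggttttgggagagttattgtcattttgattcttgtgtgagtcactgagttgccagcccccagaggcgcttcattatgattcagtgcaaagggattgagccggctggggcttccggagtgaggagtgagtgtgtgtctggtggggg
In Avil the matches begin at bases 136 and 236 of the window, and in Chat at base 231. A match of these letters is a description of the window and not a binding site.

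Dclk1, a microtubule-associated kinase, was read by 3 probes. The probe that stood for the gene (A_55_P2148748) had levels of -4.26, -4.48 and -5.15 in KO calcitriol organoids and -7.21, -5.06 and -4.42 in KO vehicle organoids. In wild type it was -4.61, -4.17 and -4.35 with calcitriol and -4.76, -3.00 and -3.78 with vehicle. KO vehicle mouse 1 was the lowest and the only array on which it was not well above background, and the groups overlapped in each comparison. A second probe (A_51_P270355) was well above background on 4 arrays, namely KO calcitriol 2, wild-type calcitriol 1 and 2 and wild-type vehicle 2. The third (A_55_P2204804) was not well above background on any array, with levels between -8.04 and -6.15. The 3 probes of Dclk1 were thus well above background on 11, 4 and 0 arrays.

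Pou2f3, the lineage factor, had levels of -4.16, -4.47 and -4.76 in KO calcitriol organoids and -6.74, -5.31 and -4.81 in KO vehicle organoids, of which only the last was well above background. In wild type it had -5.02, -4.81 and -5.26 with calcitriol and -4.81, -3.32 and -3.95 with vehicle, all well above background. With calcitriol its KO levels all lay above its KO vehicle levels, and its wild-type levels all lay below its wild-type vehicle levels. In both cases the nearest arrays almost touched, at -4.76 against -4.81 in KO and at -4.8122 against -4.8096 in wild type. The SD of the vehicle group was 1.00 in KO and 0.75 in wild type. Gfi1b, a repressor shared with blood cell precursors, was well above background only on wild-type vehicle array 2, at -3.81, and lay between -7.45 and -5.36 on the other 11 arrays. No group of Gfi1b was measured on more than 1 array, so it entered no main test and no fold is given.

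Trpm5, the channel that depolarises taste and tuft cells, had -4.73, -5.00 and -5.33 in KO calcitriol organoids, all well above background, and -5.24, -6.30 and -5.31 in KO vehicle organoids. It had -5.19, -5.82 and -6.26 in wild-type calcitriol organoids, where only the first was well above background, and -5.54, -3.60 and -3.93 in wild-type vehicle organoids, where mice 2 and 3 were. The 2 highest levels were those of wild-type vehicle mice 2 and 3, the arrays with the highest floors. Rgs13, a regulator of G protein signalling, was well above background only on wild-type vehicle array 2 (-4.01), with levels of -8.21 to -5.83 elsewhere. Avil, an actin-severing protein of the tuft, had -4.69, -4.04 and -4.36 in KO calcitriol and -5.75, -4.74 and -4.25 in KO vehicle organoids. In wild type Avil had -5.42, -3.48 and -4.52 with calcitriol and -4.44, -2.49 and -4.17 with vehicle, with mouse 2 highest under both conditions. KO vehicle mouse 1 was the only array on which Avil was not well above background.

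Il25, the cytokine, had -4.42, -6.19 and -4.51 in KO calcitriol organoids and -5.95, -7.55 and -5.16 in KO vehicle organoids, well above background on 2 and 1 of these arrays. In wild-type calcitriol organoids it had -5.75, -5.52 and -5.42, against -4.87, -2.53 and -4.22 in wild-type vehicle organoids, well above background on all 6. Its wild-type vehicle levels all lay above those of wild-type calcitriol and of KO vehicle, and wild-type vehicle array 2 stood highest by more than a log2 unit.

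Chat, which makes acetylcholine, had -4.06, -4.25 and -6.92 in KO calcitriol organoids and -6.24, -5.68 and -4.36 in KO vehicle organoids, with 2 and 1 of the arrays well above background. In wild type it had -4.23, -4.07 and -4.11 with calcitriol and -3.98, -4.57 and -3.93 with vehicle. The wild-type levels were close together under both conditions, and the KO levels were spread between -6.92 and -4.06. On wild-type vehicle array 2, where most other tuft probes stood highest, Chat was not well above background.

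Ptgs1 (cyclooxygenase, the first step to prostaglandins) had -2.30, -3.44 and -4.07 in KO calcitriol organoids and -2.40, -2.75 and -4.12 in KO vehicle organoids. It had -2.25, -3.92 and -2.52 in wild-type calcitriol and -1.19, -2.12 and -2.61 in wild-type vehicle organoids. All groups of Ptgs1 overlapped, with SDs of 0.72 to 0.91. Alox5ap, which presents arachidonic acid to 5-lipoxygenase for leukotriene synthesis, had -3.55, -3.59 and -3.57 in KO calcitriol organoids, against -4.26, -4.37 and -3.99 in KO vehicle organoids. In wild type Alox5ap had -3.60, -3.82 and -3.93 with calcitriol and -3.94, -3.23 and -3.88 with vehicle. Its KO vehicle levels were the lowest of the 4 groups on all 3 arrays, and its standard error in the fit was the smallest of the 8 tested members. Its signal was 1.96 to 5.9 times the floor of its array, and that of Ptgs1 2.84 to 16.9 times.

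**Figure D3:**
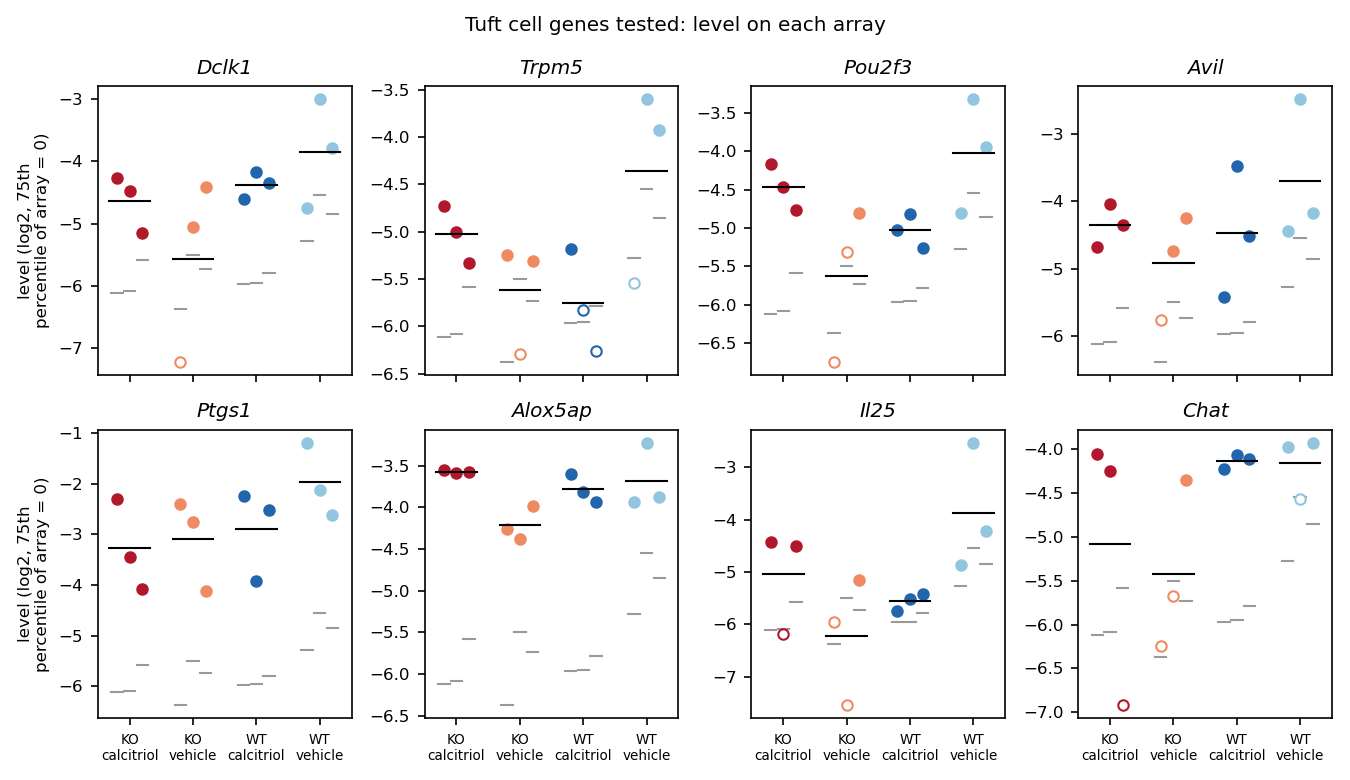
One panel per tested gene, with its level on each array in log2 units (75th percentile of the array at 0). Groups run from KO calcitriol and KO vehicle to wild-type calcitriol and wild-type vehicle. Filled circles were well above background and open circles were not, grey dashes are the array floor and black lines are group means (n = 3). Ptgs1 and Alox5ap have only filled circles, and the Alox5ap circles of KO calcitriol lie between -3.59 and -3.55.

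The first comparison asks what calcitriol did in wild-type organoids. None of the 8 tested tuft genes passed the test, with differences (calcitriol minus vehicle) from -1.69 to 0.02 on the log2 scale and a median of -0.85, and 7 of the 8 were below 0 (6 of 8 with each array scaled to its median or with quantile normalization). The largest differences were those of Il25, -1.69 (SE 0.74, unadjusted p = 0.0428 in limma's test), and Trpm5, -1.40 (SE 0.56, unadjusted p = 0.0277), and both had an adjusted p of 1.00. All adjusted p-values come from limma with Benjamini-Hochberg adjustment over all 24245 genes tested, and 0.05 was the threshold. Among those genes 39 passed (0.161%), the median difference was -0.03, and 1104 genes had an unadjusted p under 0.05, as had 2 of the 8 members. The levels of Pou2f3 and Il25 did not overlap between the groups, 2 of 8 members where 8.96% of all tested genes did not overlap. For Pou2f3 the nearest arrays lay at -4.8122 with calcitriol and -4.8096 with vehicle. The 8876 probes never well above background differed by a median of -1.14 in the same direction, and the 3310 tested genes that were well above background on 8 to 11 arrays, as 6 of the 8 members were, by a median of -0.28. Without wild-type vehicle array 2 the median over the members was -0.42. On the slide with 7 arrays, where wild-type vehicle has 1 array, it was -0.45, and with slide as a block -1.01. With the mouse as a block no member passed either (lowest adjusted p = 0.329 in limma's test). In bulk organoids fewer tuft cells and less RNA per cell cannot be told apart.

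In VDR KO organoids, which lack the receptor for calcitriol, none of the 8 genes passed the test for calcitriol against vehicle. Differences ran from -0.18 to 1.18, the median was 0.62, and 7 of the 8 lay above 0 (with quantile normalization 2 of the 8 lay below). Trpm5 entered the test only through KO calcitriol, so the entry rule favoured this direction for Trpm5. Dclk1, Pou2f3 and Avil were well above background on all 3 KO calcitriol arrays but not on all 3 KO vehicle arrays. They also entered through both wild-type groups, and the part of the entry rule in the count of 7 was not tested. Alox5ap, with the smallest error, differed by 0.64 (SE 0.27, unadjusted p = 0.0385, adjusted p = 0.841 in limma's test), with 0.71, 0.78 and 0.42 in the 3 mice. Pou2f3 differed by 1.15 (SE 0.53, adjusted p = 0.841 in limma's test), of which mouse 1 gave 2.57, mouse 2 gave 0.84 and mouse 3 gave 0.05. No gene of the 24245 passed (0%) in this comparison, 1400 had an unadjusted p under 0.05, and 2 of the 8 members had. Alox5ap and Pou2f3 did not overlap between the groups, where 7.47% of all tested genes did not. For Pou2f3 the nearest arrays lay at -4.76 with calcitriol and -4.81 with vehicle. The genes above background on 8 to 11 arrays differed by a median of 0.49, close to the median of the members, and the probes never above background by -0.08. With slide as a block the median of the members was 0.15, and 4 of the 8 were below 0.

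The calcitriol effect in wild type minus that in KO was below 0 for all 8 tested genes, with a median of -1.39 and none past the threshold. It was -2.87 for Il25 (SE 1.05, unadjusted p = 0.0187), -2.16 for Pou2f3 (SE 0.74, unadjusted p = 0.0135) and -2.00 for Trpm5 (SE 0.79, unadjusted p = 0.0268), each with an adjusted p of 1.00 in limma's test. Trpm5 entered the test only through KO calcitriol, so the entry rule favoured a value below 0 for Trpm5. Chat entered only through wild-type calcitriol, which favoured the other direction. Of all genes 7 passed (0.0289%) and 820 had an unadjusted p under 0.05. Calcitriol minus vehicle for Il25 was 1.53, 1.36 and 0.65 in the 3 KO mice and -0.89, -2.98 and -1.20 in the 3 wild-type mice. Opposite signs in every mouse of the 2 genotypes were seen for Il25 and Pou2f3 among the 8 members and for 3.89% of all tested genes. The sign of the difference depended on the scaling for some members: with each array scaled to its median 5 of the 8 were below 0, and with quantile normalization 6 of the 8. Scaling to the median moved the median of all genes from -0.07 to 0.74 and that of the members from -1.39 to -0.59. The probes never above background differed by -1.15 and the genes above background on 8 to 11 arrays by -0.76.

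**Figure D4:**
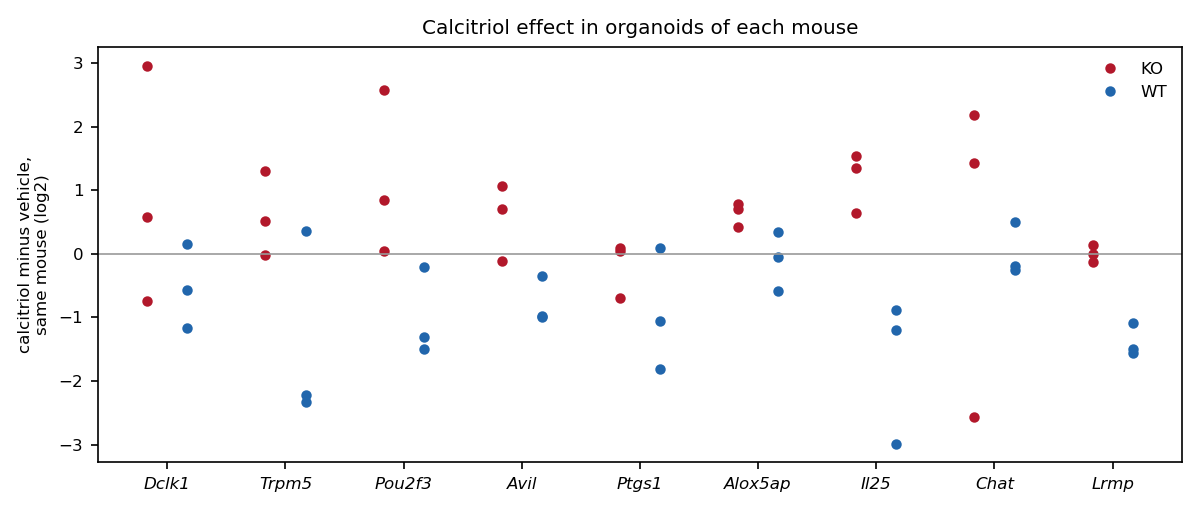
Each circle is the level with calcitriol minus that with vehicle in organoids of the same mouse (log2), KO left and wild type right for each gene, for the 8 tested members and Lrmp. Il25 and Pou2f3 have their 3 KO circles above 0 and their 3 wild-type circles below, and the wild-type circles of Lrmp lie between -1.55 and -1.09.

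In vehicle, all 8 tested genes had a lower mean in KO than in wild-type organoids (7 of 8 with each array scaled to its median and 6 of 8 with quantile normalization), and none passed the test. Only Ptgs1 and Alox5ap were well above background on all 3 KO vehicle arrays, so no other member entered the test through KO vehicle. Dclk1, Pou2f3, Avil and Il25 were on all 3 wild-type vehicle arrays, and the first 3 of them also entered through both calcitriol groups. The part of the entry rule in the count of 8 was not tested. Differences (KO minus wild type) ran from -2.35 to -0.53, with a median of -1.26 against -0.06 over all genes. Il25 averaged -6.22 ± 1.21 in KO and -3.87 ± 1.20 in wild type (SD, n = 3 each), a difference of -2.35 (SE 0.74, adjusted p = 0.558 in limma's test). Il25 entered the test only through the wild-type groups, so the entry rule favoured this direction. Pou2f3 averaged -5.62 ± 1.00 in KO and -4.03 ± 0.75 in wild type (SD, n = 3 each), a difference of -1.59 (SE 0.53, adjusted p = 0.558 in limma's test). Dclk1 differed by -1.72 (SE 0.66) and Trpm5 by -1.26 (SE 0.56), with adjusted p-values of 0.562 and 0.565 in limma's test. These 4 members had an unadjusted p under 0.05, as had 2119 of the 24245 genes (8.74%), of which 1 passed after adjustment (0.00412%). Il25 and Alox5ap did not overlap between the genotypes, where 8.18% of all tested genes did not. For Alox5ap the nearest arrays lay at -3.99 in KO and -3.94 in wild type.

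This comparison uses the same wild-type vehicle arrays as the calcitriol comparison in wild type, and so shares their high readings at low signal. Probes never above background differed by -0.99 between the genotypes and genes above background on 8 to 11 arrays by -0.78. On the 2 members measured on all 12 arrays, Alox5ap differed by -0.53 (SE 0.27, adjusted p = 0.617) and Ptgs1 by -1.11 (SE 0.61, adjusted p = 0.627, both in limma's test). After normexp background correction, which compresses dim signals, the median over the members was -0.44. On the slide with 7 arrays it was -0.75, from 1 vehicle array of each genotype. With each array scaled to its median, Alox5ap differed by 0.27, the other direction, where all genes had a median of 0.73. With the mouse number as a block the lowest adjusted p was 0.302 in limma's test.

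With calcitriol present, the median difference between KO and wild-type organoids was 0.16 over the 8 tested genes, with 5 above 0 and 3 below, and with normexp background correction 7 above and 1 below. None passed, and no member had an unadjusted p under 0.05, the lowest being 0.206 (limma). Chat had the most negative difference, -0.94 (SE 0.70), from the single KO array at -6.92. Without that array the Chat difference was -0.02. Trpm5 had the most positive, 0.74 (SE 0.56). Trpm5 entered the test only through KO calcitriol and Chat only through wild-type calcitriol, where each was well above background on all 3 arrays. The entry rule thus favoured the direction that each of these differences has. Of all genes 50 passed (0.206%), 47 of them lower in KO. Pou2f3 and Alox5ap did not overlap between the genotypes, both higher in KO, where 7.42% of all tested genes did not. The nearest KO and wild-type arrays lay at -4.76 and -4.81 for Pou2f3 and at -3.593 and -3.601 for Alox5ap. Here the dim ends of the arrays lay closest between groups among the genotype comparisons, with probes never above background at 0.18 and genes above background on 8 to 11 arrays at 0.0024. An adjusted p near 1 does not show that the levels are alike: the standard errors of the members ran from 0.27 to 0.74 log2 units.

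**Figure D5:**
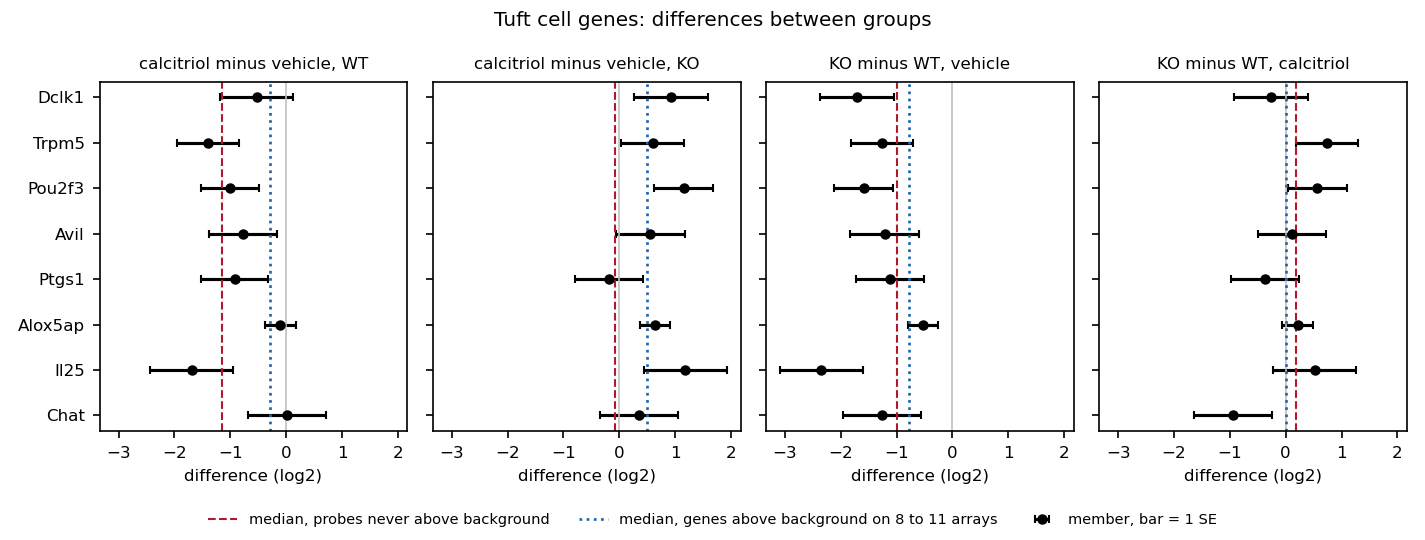
Each panel is 1 comparison and each row 1 tested gene, with the difference of group means (log2) and a bar of 1 SE from the fit over all 12 arrays. The red dashed line is the median over probes never well above background and the blue dotted line that over genes above background on 8 to 11 arrays. All 8 circles lie below 0 for KO minus wild type in vehicle, where the lines stand at -0.99 and -0.78.

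Genes that tuft cells share with other cells were taken in 6 further lists of 55 genes, of which 54 were found on the array. Of these, 34 were well above background on all 12 arrays, 18 on 1 to 11 and 2 on none (Inpp5d, a lipid phosphatase of blood cells, and Spib, an Ets factor). In the taste-type chain 4 of 9 genes were on all 12 arrays: the G protein subunit Gng13, the calcium channel Itpr3, the umami and sweet receptor subunit Tas1r3 and the fatty acid receptor Ffar3. Gnat3, Plcb2 and Sucnr1, which tie the chain to taste and succinate sensing, were on 3, 2 and 1 arrays. Eicosanoid enzymes on all 12 were Ltc4s, Pla2g4a, Ptgs2 and Ptges, while Hpgds, the prostaglandin D synthase of tuft cells, was on 3. Of the type 2 circuit Il17rb (the Il25 receptor subunit), Il13ra1, Il4ra and Il33 were on all 12. Among transcription factors it was Sox4, Sox9, Gfi1, Hmgb3 and Nfatc1. Signalling genes shared with blood cells were on all 12 for Ptpn6, Vav1, Plcg2, Bmx, Matk, Lrmp and Sh2d7. So were 10 of 12 cytoskeletal and surface genes: the microvillus proteins Vil1 and Espn and the keratin Krt18, which other colon epithelial cells also make, and Kctd12, Cd24a, Nebl, Cd47, Tuba1a, Cwh43 and Nrep.

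Of these 54 genes 41 were tested, and none passed in any of the 5 comparisons. With calcitriol in wild type 7 of the 8 members were below 0 with a median of -0.85, against 24 of these 41 genes with a median of -0.04. The 2 sets differ in brightness, as 34 of the 54 listed genes but 2 of the 10 members were well above background on all 12 arrays. Among all tested genes, those above background on 8 to 11 arrays had a median of -0.28 and those on all 12 of -0.02. The part of brightness was not tested. The 41 genes had a median of 0.05 for calcitriol in KO, -0.08 for KO against wild type in vehicle and 0.02 for KO against wild type in calcitriol. For the difference of the calcitriol effects the members had a median of -1.39, with 8 of 8 below 0, and the 41 genes -0.18, with 30 below 0. All tested genes above background on 8 to 11 arrays had -0.76 here, and those on all 12 had -0.04. With the mouse as a block 2 of the 41 passed for calcitriol in wild type, as did 235 of all 24245 tested genes. Lrmp (also called Irag2), a membrane protein of the endoplasmic reticulum known from lymphocytes and a marker of tuft cells, had -2.56, -4.41 and -3.58 with calcitriol in wild type and -1.47, -2.86 and -2.09 with vehicle. Calcitriol minus vehicle was -0.01, -0.14 and 0.14 in the 3 KO mice and -1.09, -1.55 and -1.49 in the 3 wild-type mice. Its wild-type difference of -1.38 had an SE of 0.19 and an adjusted p of 0.0208 with the mouse as a block, and an SE of 0.62 and an adjusted p of 1.00 without, both in limma's test. The call with the block did not hold without any 1 of the wild-type mice (adjusted p = 0.121 to 0.152) and when no filter on dim probes was used (adjusted p = 0.0551 in limma's test). The difference of the effect between the genotypes did not pass with the block (adjusted p = 0.190 in limma's test).

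Cd24a, a surface protein of tuft and stem cells, rose with calcitriol in wild type by the fit with the mouse as a block. It had 5.53, 5.29 and 4.93 with calcitriol in wild type, against 4.86, 4.59 and 3.95 with vehicle, a difference of 0.78 (adjusted p = 0.0147 with the mouse as a block and 0.826 without, both in limma's test). KO calcitriol organoids had 4.54, 4.52 and 4.22, a difference of -0.82 from wild type with calcitriol (adjusted p = 0.00524 with the number as a block and 0.700 without, both in limma's test). With the number as a block 249 of all 24245 tested genes passed between the genotypes in calcitriol. Leaving out any 1 wild-type mouse ended the block call for calcitriol against vehicle (adjusted p = 0.0876 to 0.126). The block call between the genotypes ended without mouse 2 of KO or of wild type (highest adjusted p = 0.0756 in limma's test). The difference of the calcitriol effect between the genotypes did not pass with the block for Cd24a (adjusted p = 0.0793 in limma's test).

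Markers of other cells that express some of the members were read as well. Of 9 mast cell and basophil genes on the array, Cpa3, Fcer1a and Ms4a2 were not well above background on any array, while Kit, Tpsb2 and Cma1 were on all 12 and Gata2 on 8. Their summed level, relative to the 75th percentile as 1, ran from 0.657 to 1.94 in KO calcitriol, 0.755 to 2.03 in KO vehicle, 0.585 to 2.15 in wild-type calcitriol and 0.607 to 2.10 in wild-type vehicle organoids. Of 8 platelet and erythroid genes, which share Gfi1b and Ptgs1 with tuft cells, Gp9, Gata1 and Hbb-bt were on no array, while Pf4 and Epor were on all 12 and Itga2b on 11. Pf4, a platelet chemokine, differed by 0.85 between KO and wild type with calcitriol (adjusted p = 0.0115 with the number as a block and 1.00 without, both in limma's test). Pf4 was 1 of 249 genes that passed with that block, out of 24245. The summed level of that list was 0.842 to 2.11, 0.833 to 2.14, 0.522 to 1.11 and 0.643 to 1.81 in the same 4 groups. Such a sum is carried by the brightest genes of a list and is no reading of all its markers. Pf4 alone averaged -0.04, -0.04, -0.89 and -0.36 in these groups. Among neuron and glia genes, which share Chat and Dclk1, those on no array included Slc5a7, Uchl1 and S100b, and those on all 12 included Slc18a3, Elavl4 and Snap25. Of 14 B, T and myeloid genes, which share Lrmp, 6 were on all 12 arrays (Cd3e, Cd4, Itgam, Csf1r, Cd68 and Cd74). Their summed level was 13.7 to 28.6, 12.8 to 16.1, 18.4 to 23.7 and 13.1 to 20.4 in the 4 groups. Of 10 fibroblast and endothelium genes Pecam1 and Kdr were on all 12 arrays and Pdgfra on none. Of 12 enteroendocrine genes 9 were on all 12 arrays, and Neurog3, the factor that starts that lineage, differed by 1.13 with calcitriol in wild type (adjusted p = 0.00317 with the mouse as a block and 0.108 without, both in limma's test). Neurog3 was 1 of 235 genes that passed with that block, out of 24245. What these cells contributed to any member was not tested.

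Over the 12 arrays the genes with the pattern most like that of Alox5ap, among 13015 genes on all 12 arrays, were Gm7694 (Pearson r = 0.95), Spata31d1a (r = 0.93) and Kcnk16 (r = 0.89). Those most like Ptgs1 were Spaca7 (r = 0.96), Krtap1-5 (r = 0.91) and Tchh (r = 0.91). The 12 points share arrays, mice and slides, and the values are descriptions. The level of the members also followed that of the probes never above background to differing degrees, with r over the 12 arrays from 0.05 for Chat, 0.36 for Ptgs1 and 0.39 for Alox5ap to 0.74 for Il25 and 0.83 for Rgs13.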

How the data were processed

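Gene expression was measured on 12 single-colour Agilent arrays, whose scanner files the authors deposited. The intensity values are processed signals that Agilent Feature Extraction 11.5.1.1 had already background-corrected, per the file headers, and the well-above-background flags come from the same software. From these deposited intensities the log2 of the processed signal minus the 75th percentile of each array was computed after removing control spots, and spots of one probe were averaged. Probes were named through their transcript accessions in the RefSeq table. Genes entered the test through probes flagged in each of the 3 arrays of at least 1 group, and the one with the highest mean stood for the gene. limma 3.58.1 (R 4.3.3) fitted the 4 group means over 12 arrays with an intensity trend and Benjamini-Hochberg adjustment over 24245 genes, and was tested on simulated data. The files hold no counts, so the number of arrays limits precision.

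Replicate numbers denote separate mice, each giving a vehicle and a calcitriol culture. The numbers in the sample titles were taken to pair the samples. Deviations from the group means correlated between arrays of the same mouse (r = 0.10 to 0.59) and of the same number across genotypes (r = 0.13 to 0.64). These values do not test the pairing by mouse, since arrays of unlike number were not compared. Mice of the same number also share labelled sex and age. Alternatives were the replicate block, other scalings, background correction, filters, floors, probe rules, slides and leaving out each array. Every member is described with all its probes. Genes of the further tuft lists are named where they passed with or without the block or were well above background on all 12 arrays, other listed genes where they passed or define another cell type, and the 3 genes of highest correlation are given for members measured on all 12 arrays. Gnat3, Plcb2, Sucnr1, Hpgds, Inpp5d and Spib were named after their values were seen. The members and lists were chosen with earlier results of these data known.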

Additional observations from a re-analysis of the deposited data

Results flagged for a closer look

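Calcitriol minus vehicle had opposite signs in every mouse of the 2 genotypes for Pou2f3 and Il25, a pattern that 943 of the 24245 tested genes (3.89%) showed. Rgs13, which was well above background on 1 array and not tested, showed it too, with 0.09, 0.10 and 2.12 in the KO mice and -0.72, -3.93 and -0.13 in the wild-type mice. Pou2f3 was higher with calcitriol than with vehicle in all 3 KO mice (2.57, 0.84 and 0.05, log2) and lower in all 3 wild-type mice (-0.22, -1.49 and -1.31). The effect in wild type minus that in KO was -2.16, with an adjusted p of 1.00 in limma's test (0.596 with the mouse as a block). For Il25 this value was -2.87, with an adjusted p of 1.00 in limma's test (0.399 with the mouse as a block). Neither passed the test of the difference, and the probes never above background gave -1.15 for the same quantity. On the slide with 7 arrays the values were -1.57 for Pou2f3 and -1.19 for Il25.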

How the results depend on the processing

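No tuft member passed the threshold in any comparison under any of the 25 alternatives. The replicate block pairs the arrays of a mouse for the calcitriol effects. Between the genotypes it pairs different mice that share a number. With this block the count of members called was 0 in all 5 comparisons, as it was when each array was left out in turn (0 in each case). Over 778 differences of members under these alternatives the lowest adjusted p was 0.0921 (Trpm5, KO against wild type in vehicle without wild-type vehicle replicate 1, limma), and 44 changed sign, 8 of them for the calcitriol effect difference. The block moved the count over all genes to 235, 0, 58, 4 and 249 for calcitriol in wild type, calcitriol in KO, their difference, and KO against wild type in vehicle and in calcitriol, against 39, 0, 7, 1 and 50 without it. Scaling each array to its median moved the median of all genes to 0.48 for calcitriol in wild type and 0.73 for KO against wild type in vehicle, and that of the members to -0.34 and -0.47. Slide as a block left 6 genes called for calcitriol in wild type, and the slide with 7 arrays 3. By the flag for a positive and significant signal, Gfi1b was detected on 11 arrays, Rgs13 on 4 and the other 2 Dclk1 probes on 10 and 6. The planned normexp on mean signal was run on median signals, since the files used here hold no mean signal column. A common floor for all arrays, every probe without a filter, the block without a filter, and leaving out each mouse for Lrmp and Cd24a were added after seeing the data. The block with each mouse left out was not run for members, as none was called with the block. As limits of these results, 6 of the 8 tested members lie near the floor on some arrays, the floor differs between groups, and each group has 3 arrays. Ptgs1 and Alox5ap, well above background on all 12 arrays, passed in no comparison either. The part of each limit in the results was not tested.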
